A study of Mus musculus with 6 samples.

Results

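Cell cycle and mitosis genes were examined in mouse liver after deproteinized extract of calf blood (DECB), as a list of 44 genes chosen by name: cyclins and their kinases, DNA replication proteins, and proteins of the mitotic spindle, kinetochore and chromosomes. All 44 were found on the array among 20659 named genes. Of these members, 33 were bright enough to be tested, of 14807 genes tested in all, and the other 11 were at or near background. The samples were livers of male ICR mice, an outbred stock. The DECB group was dosed into the stomach with DECB and the control group with saline, both daily over 35 days in a volume of 0.08 mL for each 20 g of mouse. The series concerns energy metabolism under acute lack of oxygen, and the labels do not say whether these livers were taken before or after such a test. The labels give 12 mice a group and a weight of 18 to 22 g, no age and no genetic change in either group. RNA of 3 DECB samples (DECB 4, 5 and 6) and 3 control samples (controls 1, 2 and 3) was labelled with Cy3 and read on 1-colour arrays. The sample descriptions name 30 days for DECB and 1 day for the controls, against the 35 days given elsewhere in the labels. Which mouse, or how many, an array stands for is not given, so the spread behind each p-value is that of these samples and may be technical.

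A cell that divides first passes from G1 into S phase under cyclin D and cyclin E kinases, which release E2F transcription factors from the RB protein family. It loads the MCM helicase on replication origins, copies its DNA, and then enters mitosis under cyclin A and cyclin B with CDK1. Genes of S phase are classic E2F targets. Genes of mitosis are held off in resting cells by the DREAM complex at a promoter element called the CHR (cell cycle genes homology region), often beside CCAAT boxes bound by NF-Y. Most hepatocytes of an adult mouse are at rest, so many of these genes are dim in whole liver, and the rare cycling cells include hepatocytes as well as other liver cells.

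The promoters of the members differed by role, as windows of RefSeq promoter sequence (GRCm38.p6) from 250 bases before to 50 bases after the gene start show. Windows were found for 35 of the 44 members. The 5 printed here are of mitosis genes with large differences (Prc1, Cdc20, Plk1), of a replication gene with a large difference (Mcm3) and of a replication gene with a small one (Pcna). Capitals mark CHR elements (the letters TTTGAA, or in their place the letters TTCGAA), the box CCAAT itself, and E2F sites (TTTCCCGC, TTTGGCGC, TTTCGCGC or TTTGCCGC), each searched on both strands. They lie at chr7:80294201-80294500 (+ strand), chr4:118437294-118437593 (- strand), chr7:122159185-122159484 (+ strand), chr1:20820263-20820562 (- strand) and chr2:132253131-132253430 (- strand).
Prc1: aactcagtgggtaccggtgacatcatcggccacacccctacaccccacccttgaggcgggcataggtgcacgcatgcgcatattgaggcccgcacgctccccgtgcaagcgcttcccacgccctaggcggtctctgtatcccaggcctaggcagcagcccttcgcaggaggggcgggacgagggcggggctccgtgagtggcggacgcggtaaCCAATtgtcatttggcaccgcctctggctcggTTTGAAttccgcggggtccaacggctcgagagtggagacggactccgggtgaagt
Cdc20: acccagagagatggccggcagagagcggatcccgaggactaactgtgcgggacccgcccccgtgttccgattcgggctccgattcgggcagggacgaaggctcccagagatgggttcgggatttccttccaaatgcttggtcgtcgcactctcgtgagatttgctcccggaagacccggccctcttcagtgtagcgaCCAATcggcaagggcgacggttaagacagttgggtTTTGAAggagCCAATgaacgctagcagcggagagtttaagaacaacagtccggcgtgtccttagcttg
Plk1: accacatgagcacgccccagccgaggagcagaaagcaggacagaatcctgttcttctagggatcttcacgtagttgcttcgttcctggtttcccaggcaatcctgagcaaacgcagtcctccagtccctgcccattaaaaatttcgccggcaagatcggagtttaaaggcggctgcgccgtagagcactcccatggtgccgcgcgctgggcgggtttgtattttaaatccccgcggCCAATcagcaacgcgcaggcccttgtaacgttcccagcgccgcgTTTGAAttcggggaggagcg
Mcm3: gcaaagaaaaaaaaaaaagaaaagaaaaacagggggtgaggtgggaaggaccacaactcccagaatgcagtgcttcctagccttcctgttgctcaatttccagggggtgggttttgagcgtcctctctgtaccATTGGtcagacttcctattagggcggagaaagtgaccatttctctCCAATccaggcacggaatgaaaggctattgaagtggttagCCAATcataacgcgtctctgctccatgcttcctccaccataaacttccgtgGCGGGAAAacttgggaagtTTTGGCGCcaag
Pcna: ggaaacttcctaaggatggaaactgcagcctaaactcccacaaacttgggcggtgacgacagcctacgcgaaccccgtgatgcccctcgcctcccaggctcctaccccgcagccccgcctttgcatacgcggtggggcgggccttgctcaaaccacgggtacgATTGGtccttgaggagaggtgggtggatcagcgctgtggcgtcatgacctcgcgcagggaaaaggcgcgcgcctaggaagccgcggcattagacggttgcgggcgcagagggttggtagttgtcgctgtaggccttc

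In the windows of Prc1 and Cdc20 a CHR element starts 5 and 18 bases before the gene start, and a CCAAT box starts at 37 and at 53 bases before it. In that of Plk1 the CCAAT box starts 14 bases before the gene start and the CHR element lies after it. Mcm3 has 3 CCAAT boxes and 2 E2F sites and no CHR element, and Pcna has 1 CCAAT box. Of 22 windows of mitosis members, 17 (77.3%) hold both a CHR element and a CCAAT box, against 7.52% of all 32851 promoter windows. Prc1 has overlapping windows that are both counted, and by gene the count is 16 of 21. In those 17 windows the nearest CHR and CCAAT letters start a median of 28 bases apart, against 61 bases in the 2472 windows of all genes that hold both. An E2F site is present in 6 of 12 windows of replication members (50%), in 1 of 22 windows of mitosis members (4.55%) and in 2.26% of all windows. A match of letters is a description and not a bound site.

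Arrays differed in brightness by the scan in which they were read, and this touches every dim member. Scan 1 held DECB 6 and control 1, scan 2 held DECB 4 and controls 2 and 3, and scan 3 held DECB 5. The 75th percentile of the signal was 84.8 and 78.8 on the scan 1 arrays, DECB 6 and control 1, and 422 to 551 on the others. Levels are given on a log2 scale on which the 75th percentile of the array is 0 and a level compares arrays for 1 gene, not genes with each other. The lowest level of a probe well above background was -2.26 on DECB 6 and -1.95 on control 1, against -5.04 to -4.53 on the other arrays. Of the 33 tested members, 3 were not well above background on DECB 6 and 17 were not on control 1, so their levels there are uncertain. By the scanner software's weaker flag, positive and significant against background, 37 of 44 members were detected on DECB 6 and 26 on control 1. Controls 2 and 3 correlated at r = 0.992 across genes, against 0.901 to 0.968 for other pairs, and whether they are separate animals cannot be read from the labels. All 10 hepatocyte markers, albumin among them, were bright enough to be tested. In bulk tissue, more cells of a type and more RNA per cell cannot be told apart.

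More members were detected on the DECB array than on the control array of scan 1, and on scan 2 the counts were nearly equal. On scan 1, 30 of 44 members were well above background on DECB 6 and 16 on control 1 (68.2% and 36.4%), while 51% and 47.2% of all named genes were. On scan 2 the counts were 34 members on DECB 4 and 33 on each of controls 2 and 3, while 69.1% of all named genes were detected on DECB 4, against 72.6% and 74% on controls 2 and 3. The count on DECB 4 is made up of 33 tested members and Top2a, whose spot there was marked as an outlier. DECB 5, alone on scan 3, had 39 members and 80.6% of all named genes. Mitosis members accounted for most of the difference on scan 1, with 15 of 27 detected on DECB 6 and 4 on control 1. Replication members numbered 11 of 12 on DECB 6 and 9 on control 1, and DECB 5 was the array with all 12.

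**Figure D1:**
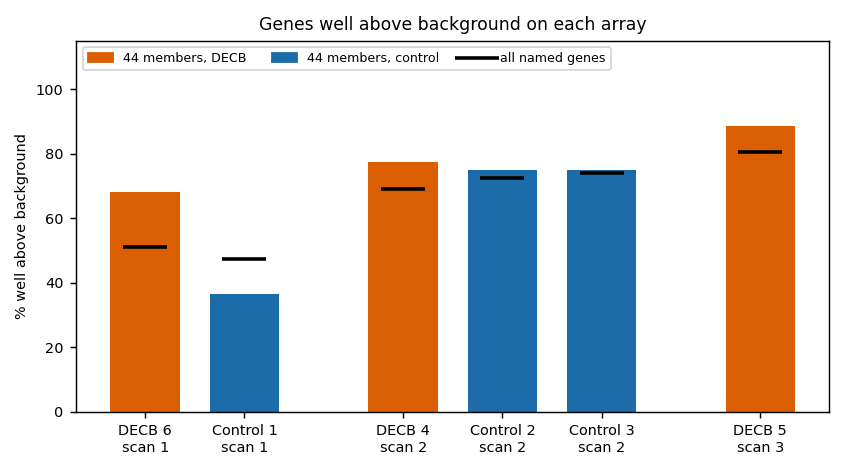
Share of genes well above background on each array (y axis, %), arrays grouped by scan on the x axis; bars are the 44 members and black marks all named genes. The bar of DECB 6 stands at 68.2% and that of control 1 on the same scan at 36.4%, while the marks of these arrays lie at 51% and 47.2%.

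The members lay mostly higher in DECB samples, and none passed the test over all genes. DECB minus control was above 0 for 32 of 33 tested members, with a median of 0.97 on the log2 scale, against 47.5% of all genes and a median of -0.03. At an adjusted p under 0.05 (limma, Benjamini-Hochberg) 0 members were called, where 0.466% of all genes were called and 0.209% were called higher. At an unadjusted p under 0.05, 15 members were higher and 0 lower, where 4.22% of all genes were higher. In 16 members all 3 DECB arrays lay above all 3 control arrays, as did 7.24% of all genes. Of these, 11 also did so (5.26% of all genes) when levels not well above background were raised to the array's lowest detected level, a step chosen after seeing the data. For the other 5 (E2f1, Plk1, Cdk1, Kif20a and Aurka) the raised control 1 level reaches into the DECB range. No member had passed the filter on low signal through the DECB arrays alone. The smaller group of 16 members well above background on all 6 arrays had a median of 0.60, against -0.07 for all such genes, with 15 above 0 (43.4% of such genes) and 4 higher without overlap (6.58% of such genes).

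Within scans the direction was mostly the same. DECB 6 lay above control 1 in 31 of 33 members (46.4% of all genes), and DECB 4 above the mean of controls 2 and 3 in 29 (45.6% of all genes). Both held in 28 members, against 28.6% of all genes, and by at least 2-fold in 12, against 2.09% of all genes. With levels not well above background raised to the floor, 7 members did so, against 1.55% of all genes, and E2f1, Mki67, Mcm2, Kif20a and Cdk1 did not. The median was 1.48 within scan 1 and 0.72 within scan 2. DECB 6 was the highest of the 6 arrays in 25 members and control 1 the lowest in 15. With scan as a block 7 members were called, all higher (Cdk1, Mad2l1, Mcm3, Prc1, Mcm2, Mki67 and Plk1), in a fit that called 2.74% of all genes higher and in which DECB 5 adds nothing to the contrast. The spread behind its p-values rests in part on the difference between controls 2 and 3, which may not be separate animals. With controls 2 and 3 averaged, in a fit without the block, 0 members were called.

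**Figure D2:**
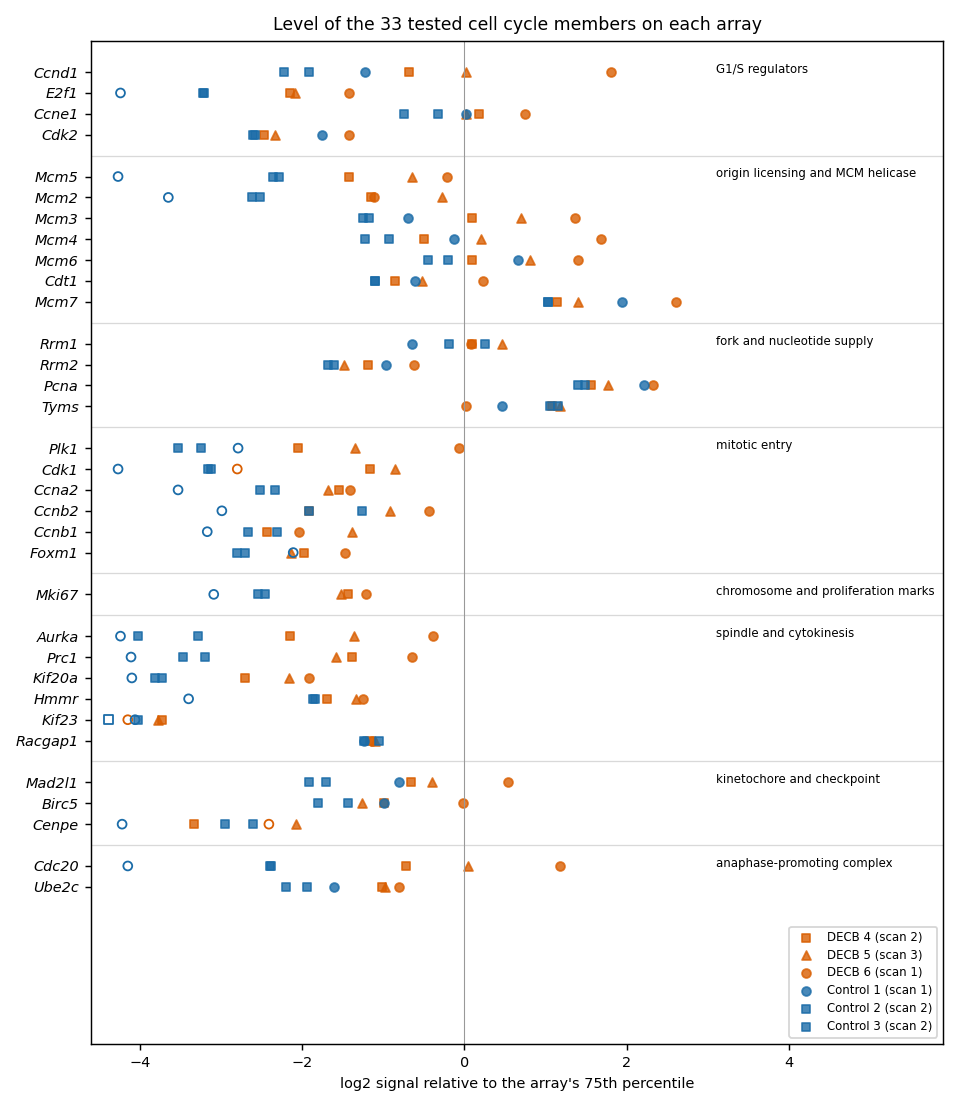
Level of each tested member (rows, grouped by role) on the 6 arrays, on the x axis in log2 units with the 75th percentile of the array at 0. Colour gives the group and shape the scan; open symbols were not well above background, and most of these are control 1 in the mitosis rows.

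**Figure D3:**
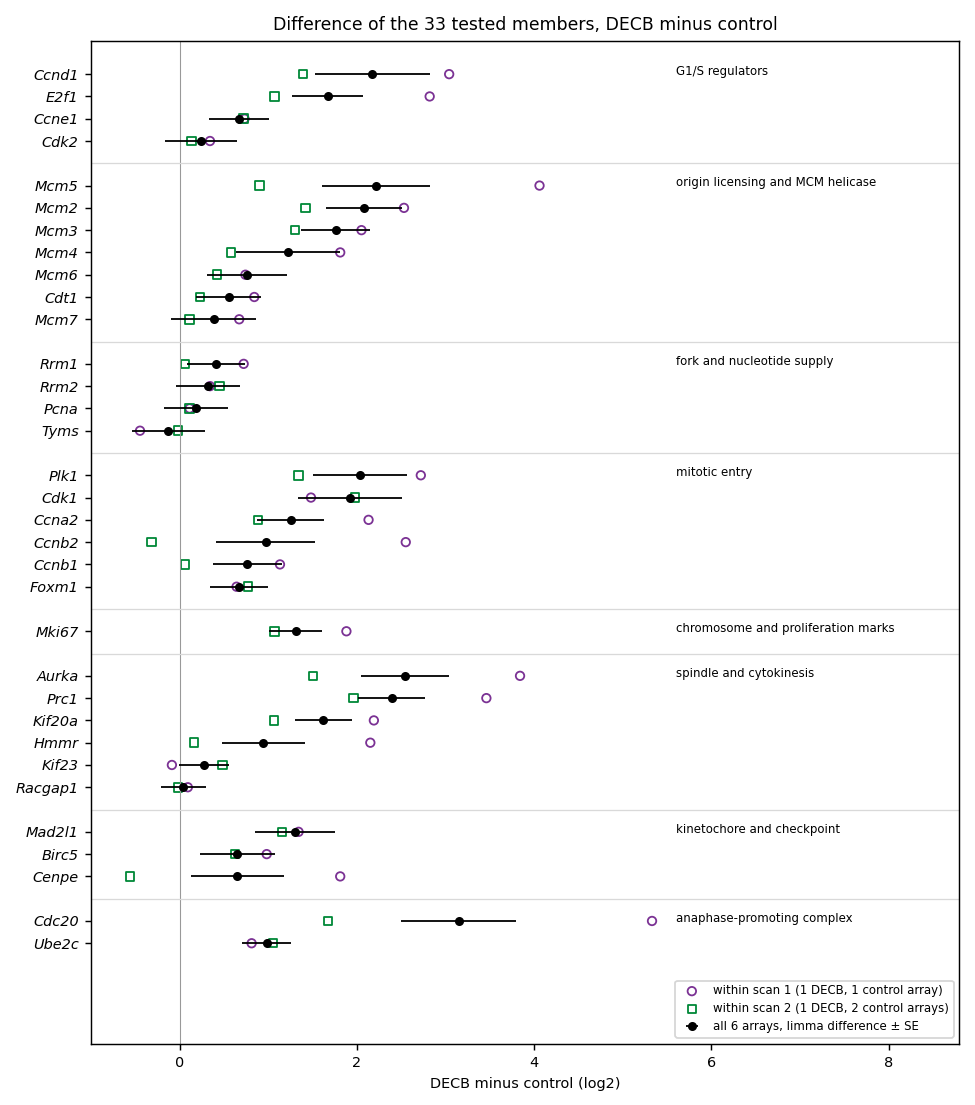
DECB minus control on the log2 scale (x axis) for each tested member, with black points and bars for the limma difference and its SE over all 6 arrays and open symbols for the differences within scan 1 and within scan 2. Cdc20 has the largest difference, 3.15, and Tyms the only one below 0, -0.13.

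Among the 4 tested regulators of entry into S phase, Ccnd1 and E2f1 had the larger differences. The median of the 4 was 1.17, with values from 0.24 to 2.17 and 0 called, where 0.466% of all genes were called. Ccnd1, cyclin D1, the cyclin that growth signals raise when hepatocytes leave rest, stood at -0.68, 0.02 and 1.81 in DECB 4, 5 and 6, against -1.23, -2.22 and -1.91 in controls 1, 2 and 3. All DECB arrays were above all control arrays, and DECB 6 was the highest. The difference was 2.17 (SE 0.65, adjusted p = 0.279 by limma), with 3.04 within scan 1 and 1.39 within scan 2. E2f1, the transcription factor that drives S phase genes, stood at -2.15, -2.09 and -1.42 in the DECB arrays, against -4.24, -3.21 and -3.22 in the control arrays. Its difference was 1.67 (SE 0.40, adjusted p = 0.159 by limma), and its control 1 level was not well above background. Ccne1, cyclin E1, which activates Cdk2 at the start of S phase, stood at 0.18, 0.02 and 0.75 in DECB and at 0.02, -0.32 and -0.75 in controls. The groups overlapped at DECB 5 and control 1, with a difference of 0.67 (SE 0.34, adjusted p = 0.616 by limma). Cdk2 itself stood at -2.47, -2.34 and -1.42 in DECB, against -1.76, -2.58 and -2.60 in controls, a difference of 0.24. Its levels followed the scans, and without DECB 6 its difference was -0.09. Ccne2, the second E-type cyclin, was well above background on no array.

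The MCM helicase genes had differences above 0, of which none was called and 3 were without overlap between the groups. Over all genes 0.466% were called and 7.24% were higher without overlap. MCM2 to MCM7 form the ring that unwinds DNA at the replication fork. All 6 differences were above 0, with a median of 1.49, 1.93 within scan 1 and 0.74 within scan 2. Mcm2 stood at -1.15, -0.28 and -1.12 in DECB 4, 5 and 6, against -3.65, -2.52 and -2.62 in controls 1, 2 and 3. Mcm3 stood at 0.09, 0.70 and 1.36 in DECB, against -0.69, -1.18 and -1.25 in controls; it was well above background on all 6 arrays. In both genes every DECB array was above every control array, and the control 1 level of Mcm2 was not well above background. Mcm2 differed by 2.08 (SE 0.43) and Mcm3 by 1.76 (SE 0.39), with adjusted p = 0.113 and 0.14 by limma and 0.0375 and 0.0323 with scan as a block. Within scans 1 and 2 Mcm2 differed by 2.53 and 1.42, and Mcm3 by 2.05 and 1.30. Mcm5 stood at -1.42, -0.64 and -0.22 in DECB, against -4.27, -2.36 and -2.28 in controls. Its control 1 level was not well above background, and the difference was 2.21 (SE 0.61, adjusted p = 0.228 by limma) with 4.06 within scan 1 and 0.90 within scan 2. Mcm4, Mcm6 and Mcm7 overlapped between the groups. They differed by 1.22, 0.76 and 0.38, and the Mcm7 difference was -0.06 without DECB 6. Cdt1, which loads the helicase, stood at -0.86, -0.52 and 0.23 in DECB, against -0.61, -1.10 and -1.10 in controls, a difference of 0.55. Cdc6, its partner in loading, was well above background on DECB 5 alone. It stood at -5.95, -4.33 and -2.92 in DECB, against -4.01, -6.32 and -6.59 in controls. Its 2 probes differed by 1.24 and -0.31, both too dim to keep.

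The 4 genes of the fork and of nucleotide supply showed little difference. Their values ran from -0.13 to 0.41 with a median of 0.25, against 1.22 for the 7 tested licensing and MCM genes, a contrast that was not tested. Pcna, the sliding clamp of DNA polymerase, stood at 1.56, 1.77 and 2.33 in DECB 4, 5 and 6, against 2.22, 1.40 and 1.49 in controls 1, 2 and 3. The arrays of scan 1 were the high ones in both groups, and the difference was 0.18 (SE 0.36, adjusted p = 1 by limma), with 0.11 within each scan. Rrm1 and Rrm2, the subunits of ribonucleotide reductase, differed by 0.41 (SE 0.33) and 0.32 (SE 0.36). Rrm1 stood at 0.10, 0.47 and 0.08 in DECB, against -0.64, -0.19 and 0.26 in controls. Rrm2 stood at -1.19, -1.48 and -0.62 in DECB, against -0.96, -1.68 and -1.61 in controls. Both overlapped between the groups. Tyms, thymidylate synthase, stood at 1.08, 1.18 and 0.02 in DECB, against 0.47, 1.06 and 1.16 in controls, a difference of -0.13 (SE 0.41) that was 0.24 without DECB 6. All 4 were well above background on every array, and a p that misses the threshold does not show that they were equal.

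Genes of entry into mitosis had differences above 0 in all 6 tested, with a median of 1.11. Of these, 0 were called and 3 were without overlap, against 0.466% and 7.24% (higher) of all genes. With levels not well above background raised to the floor, 1 of the 3, Ccna2, stayed without overlap, against 5.26% of all genes. Plk1, polo-like kinase, which drives centrosome maturation and spindle assembly, stood at -2.05, -1.35 and -0.07 in DECB 4, 5 and 6, against -2.79, -3.25 and -3.53 in controls 1, 2 and 3. It differed by 2.03 (SE 0.53, adjusted p = 0.201 by limma and 0.0497 with scan as a block), with 2.72 within scan 1 and 1.34 within scan 2. The groups were separate, with DECB 6 highest and control 1 not well above background. Cdk1, the kinase that starts mitosis, stood at -1.16, -0.85 and -2.80 in DECB, against -4.27, -3.16 and -3.12 in controls. Its levels on scan 1 were not well above background in either group. The difference was 1.92 (SE 0.59, adjusted p = 0.297 by limma), and adjusted p = 0.0231 with scan as a block and 0.0484 without scan 1. Of its other probes, both too dim to keep, one differed by 1.70 and the other by -0.10. Ccna2, cyclin A2, partner of Cdk2 and then of Cdk1, stood at -1.55, -1.68 and -1.41 in DECB, against -3.53, -2.52 and -2.33 in controls, a difference of 1.25 (SE 0.38, adjusted p = 0.291 by limma). Its control 1 level was not well above background. The B-type cyclins Ccnb1 and Ccnb2, which activate Cdk1, overlapped between the groups. They differed by 0.76 and 0.97, with 0.06 and -0.32 within scan 2, where all arrays detected them. Foxm1, a transcription factor of mitotic genes, differed by 0.67. Cdc25c, the phosphatase that activates Cdk1, was well above background on no array.

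Mki67, the gene of the proliferation marker Ki-67, which coats mitotic chromosomes, stood at -1.43, -1.52 and -1.21 in DECB 4, 5 and 6, against -3.09, -2.54 and -2.46 in controls 1, 2 and 3. The groups were separate, and the DECB arrays lay close together, while the control 1 level was not well above background. The difference was 1.31 (SE 0.30, adjusted p = 0.142 by limma and 0.0424 with scan as a block). It was 1.88 within scan 1 (0.74 with the control 1 level raised to the floor) and 1.07 within scan 2. The second probe of Mki67 differed by 1.42. Top2a, topoisomerase II alpha, which untangles chromosomes, was well above background on DECB 4 and 5 and on no control array. Its DECB 4 spot was marked as an outlier and left out, and the gene was not tested. It stood at -2.97 and -4.28 on DECB 5 and 6, against -4.03, -6.56 and -5.99 on controls 1, 2 and 3, with the scan 1 arrays and all controls not well above background.

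The spindle genes gave the smallest p-values of the list, and also the member that differed by least, Racgap1. Of 9, 6 were tested, with a median of 1.28. Prc1, which bundles microtubules at the spindle midzone, stood at -1.38, -1.58 and -0.65 in DECB 4, 5 and 6, against -4.11, -3.20 and -3.47 in controls 1, 2 and 3. The groups were far apart, and this was also so on scan 2, where all arrays detected the gene. It differed by 2.39 (SE 0.38, adjusted p = 0.0652 by limma), with 3.46 within scan 1 and 1.96 within scan 2. Kif20a, a motor of the midzone, stood at -2.71, -2.16 and -1.91 in DECB, against -4.10, -3.73 and -3.81 in controls, a difference of 1.62 (SE 0.32, adjusted p = 0.0991 by limma). Aurka, the kinase of the spindle poles, stood at -2.15, -1.36 and -0.39 in DECB, against -4.24, -3.28 and -4.02 in controls, a difference of 2.54 (SE 0.50, adjusted p = 0.102 by limma). For Prc1, Kif20a and Aurka the control 1 level was not well above background, and within scan 2 Kif20a and Aurka differed by 1.06 and 1.5. Hmmr, a spindle assembly factor, also not well above background on control 1, differed by 0.94, with 2.15 within scan 1 and 0.16 within scan 2. Kif23 and Racgap1, partners in the centralspindlin complex of cytokinesis, differed by 0.27 and 0.04. Racgap1 was well above background on all 6 arrays and ran from -1.16 to -1.10 in DECB and from -1.24 to -1.05 in controls. Both genes hold a CHR element and a CCAAT box in their promoter windows, as Prc1 does. Kif11, Nusap1 and Tpx2 were too dim to test, and Nusap1 was well above background on DECB 5 alone. The brighter probe of Tpx2 was so on DECB 5 alone, and its other probe on control 2 alone.

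Genes of the kinetochore and its checkpoint were mostly dim. Of 7, 3 were tested. Mad2l1, which holds back anaphase until chromosomes are attached, stood at -0.66, -0.40 and 0.54 in DECB 4, 5 and 6, against -0.80, -1.91 and -1.71 in controls 1, 2 and 3. The groups were separate, narrowly so between DECB 4 and control 1. It differed by 1.30 (SE 0.45, adjusted p = 0.376 by limma and 0.032 with scan as a block), while its other 2 kept probes each differed by 0.42. Birc5, survivin, a subunit of the chromosomal passenger complex, stood at -0.99, -1.26 and -0.02 in DECB, against -0.99, -1.43 and -1.80 in controls. The groups overlapped, and it differed by 0.65. Cenpe, a kinetochore motor, stood at -3.33, -2.08 and -2.41 in DECB, against -4.22, -2.95 and -2.61 in controls. Its scan 1 levels were not well above background, and it differed by 0.65 over all arrays and by -0.56 within scan 2. Bub1, Bub1b, Cenpf and Aurkb were not tested, and Bub1b and Aurkb were well above background on DECB 5 alone. DECB 5 was the array with most probes detected, and 28.2% of the 5032 genes seen on no control array were also seen there.

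Cdc20 and Ube2c, which bring the anaphase-promoting complex to its targets and supply its ubiquitin, were higher on every DECB array than on any control array. Cdc20 stood at -0.72, 0.05 and 1.18 in DECB 4, 5 and 6, against -4.15, -2.40 and -2.38 in controls 1, 2 and 3. It had the largest difference of the list, 3.15 (SE 0.65, adjusted p = 0.115 by limma), with 5.33 within scan 1, where control 1 was not well above background, and 1.67 within scan 2. Ube2c, well above background on all 6 arrays, stood at -1.02, -0.98 and -0.80 in DECB, against -1.61, -1.94 and -2.20 in controls. Its difference was 0.98 (SE 0.28, adjusted p = 0.258 by limma), with 0.81 within scan 1 and 1.05 within scan 2, and its second probe differed by 2.26.

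**Figure D4:**
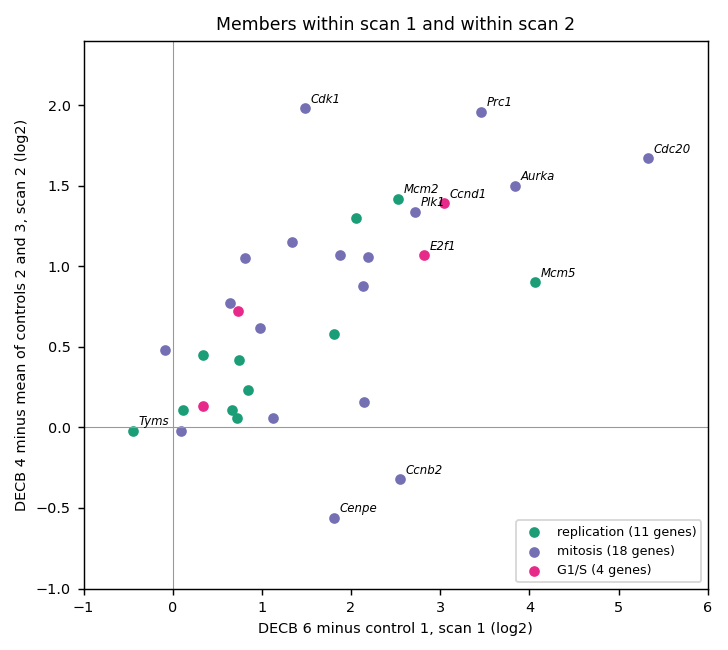
Difference of each tested member within scan 1 (x axis, DECB 6 minus control 1, log2) against its difference within scan 2 (y axis, DECB 4 minus the mean of controls 2 and 3, log2). Colour separates replication, mitosis and G1/S members. Of 33 members 28 lie above 0 on both axes. Cenpe, Ccnb2 and Racgap1 lie below 0 on scan 2, Kif23 on scan 1 and Tyms on both.

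The 11 replication members tested had a median of 0.55, and the 18 mitosis members tested a median of 1.12, a contrast that was not tested. The deviation of each member from its own mean over the 6 arrays had a median, over the mitosis members, of 0.26, 0.61 and 0.80 in DECB 4, 5 and 6, against -1.04, -0.50 and -0.58 in controls 1, 2 and 3. For the replication members it was 0.06, 0.35 and 0.88 in DECB, against 0.02, -0.49 and -0.44 in controls. The groups were separate in both, and for replication only by the step from control 1 to DECB 4. With normexp background correction the medians lay close together, at 0.39 for replication, 0.44 for mitosis and 0.51 for G1/S.

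Other genes of the same pathways were described from further lists. Of 44 further replication factors 37 were tested and 27 were above 0, with a median of 0.30, 0 called, and 9 higher and 1 lower at an unadjusted p under 0.05 (limma). Of all 14807 genes tested, 47.5% were above 0, and at that threshold 625 (4.22%) were higher and 857 lower. Uhrf1, which maintains DNA methylation behind the fork, stood at -1.69, -0.98 and -0.56 in DECB 4, 5 and 6, against -2.80, -3.55 and -3.65 in controls 1, 2 and 3, a difference of 2.25 (SE 0.41, adjusted p = 0.0813 by limma). Asf1b, a histone chaperone, stood at -1.75, -1.13 and -0.91 in DECB, against -2.65, -3 and -2.74 in controls, a difference of 1.54 (SE 0.32, adjusted p = 0.115 by limma). Both genes were separate between the groups, with control 1 not well above background. Of 52 further mitosis factors 26 were tested and 19 were above 0, with a median of 0.58, 0 called, and 9 higher and 0 lower at an unadjusted p under 0.05. Ect2, an exchange factor that acts with Racgap1 in cytokinesis, stood at -1.09, -1.14 and -0.75 in DECB, against -2.68, -2.24 and -2.64 in controls, a difference of 1.53 (SE 0.28, adjusted p = 0.0878 by limma). Cdca3, a trigger of mitotic entry, stood at -1.21, -0.70 and -0.13 in DECB, against -2.33, -2.34 and -2.57 in controls, a difference of 1.74 (SE 0.35, adjusted p = 0.103 by limma). These 4 genes also had adjusted p = 0.0176 (Uhrf1), 0.0383 (Asf1b), 0.0335 (Ect2) and 0.0411 (Cdca3) with scan as a block. For Ect2 and Cdca3 too, control 1 was not well above background.

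The lists of inhibitors and of upstream regulators held differences of both signs. Over all genes tested 0.466% were called, and at an unadjusted p under 0.05 (limma) 857 of 14807 were lower. Of 7 inhibitors of cyclin-dependent kinases 5 were tested, 1 was above 0 and 0 were called, with a median of -0.42 and 1 lower at an unadjusted p under 0.05. That was Cdkn1c, p57, at -2.55, -2.12 and -1.97 in DECB 4, 5 and 6, against -1.07, -1.32 and -1.77 in controls 1, 2 and 3, a difference of -0.82 (SE 0.32, adjusted p = 0.445 by limma). Cdkn2c, p18, stood at -0.77, -0.60 and 0.13 in DECB, against 0.42, -0.20 and -0.01 in controls. Its groups overlapped, with a difference of -0.48 (SE 0.35). Of 17 genes of the RB, E2F and DREAM group 16 were tested and 9 were above 0, with a median of 0.30 and 0 called. Rbl2, the p130 protein of the DREAM complex, stood at -0.71, -0.64 and -0.67 in DECB, against 0.38, 0.36 and 0.73 in controls. The groups were far apart, by -1.17 (SE 0.26, adjusted p = 0.142 by limma and 0.041 with scan as a block). Tfdp2, a partner of E2F proteins, stood at -1.94, -1.73 and -1.07 in DECB, against 0.22, -0.73 and -0.65 in controls, a difference of -1.19 (SE 0.39, adjusted p = 0.34 by limma and 0.027 with scan as a block). Of 16 further cyclins, kinases and phosphatases 14 were tested, with a median of 0.26 and 0 called. Pkmyt1, which restrains Cdk1, stood at -0.81, -0.62 and -0.11 in DECB, against -2.22, -2.47 and -2.46 in controls, a difference of 1.87 (SE 0.30, adjusted p = 0.0652 by limma). Ccng2, a cyclin linked to arrest, stood at -4.12, -3.87 and -4.40 in DECB, against -2.75, -1.95 and -1.65 in controls, a difference of -2.01 (SE 0.37, adjusted p = 0.0844 by limma). In both the groups were separate, but Ccng2 was well above background on 1 DECB array and 2 control arrays and on neither array of scan 1. The control 1 level of Pkmyt1 was also not well above background. With scan as a block adjusted p was 0.02 for Pkmyt1 and 0.0245 for Ccng2.

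Markers of hepatocytes and of other liver cells are given because any of these could hold dividing cells. Hepatocyte markers were above 0 in 0 of 10, with a median of -0.35, and their summed signal, in multiples of the 75th percentile, ran from 1790 to 2200 in DECB and from 2220 to 2510 in controls. Of the bile duct and progenitor list 5 of 8 were tested and all 5 were above 0, with a median of 0.76. Its summed signal ran from 2.82 to 32.5 in DECB and from 1.54 to 7.69 in controls. Without Cftr, its brightest gene and one that was low on both scan 1 arrays, it ran from 1.53 to 1.99 in DECB and from 0.886 to 1.24 in controls, and Krt7 was well above background on no array. Of the neutrophil list 5 of 8 were tested and 4 were above 0. S100a8 and S100a9 each differed by 1.57 (adjusted p = 0.101 and 0.167 by limma). With scan as a block they differed by 1.56 and 1.65 (adjusted p = 0.0309 and 0.0215 by limma). The summed signal of the list ran from 61.1 to 69.9 in DECB and from 78.7 to 108 in controls. Most of that sum was Csf3r, which differed by -0.55 with no overlap, and the rest of the list ran from 4.13 to 8.96 in DECB and from 1.76 to 7.24 in controls. In this list Ngp was well above background on no array. For lymphocytes 5 of 7 tested markers were above 0 with a median of 0.07 and a sum of 8.21 to 32.3 in DECB, against 10.8 to 50.2 in controls, and Cd3d and Ncr1 were well above background on no array. For macrophages 2 of 9 were above 0 (sum 23.3 to 25.4 in DECB, against 22.7 to 31 in controls), and for endothelium 3 of 8 (16.7 to 33.6 in DECB, against 22.8 to 41.2 in controls). Stab2, an endothelial marker, differed by -1 (adjusted p = 0.53 by limma) and by -1.05 with scan as a block (adjusted p = 0.0463 by limma). For stellate cells 3 of 8 were above 0 (20.9 to 45.3 in DECB, against 32.2 to 57.5 in controls). For erythroid precursors 1 of 5 was above 0 (11.5 to 22.4 in DECB, against 24.6 to 37.3 in controls), and Gata1 was well above background on no array. Without the brightest gene of this list the direction turned, with a sum of 7.32 to 14.1 in DECB and of 4.9 to 8.6 in controls. Over all 6 arrays 0 markers were called (limma), with 4 higher and 3 lower at an unadjusted p under 0.05. At that threshold 4.22% of all genes were higher, and 857 of 14807 were lower. The part of these cells in the results was not tested.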

How the data were processed

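Arrays of 3 DECB and 3 control liver samples were used, grouped by sample title. Per the file headers, each deposited file is the output of Agilent Feature Extraction 11.0.1.1 (also named in the submitters' processing notes). The intensity used, the deposited processed Cy3 signal, was background-subtracted with no normalization between arrays. The series' value table, deposited by the authors on a log2 scale (median 5.35 in each column), was not used in any comparison: after removal of each probe's mean its columns correlated with their own arrays at -0.04 to 0.027, and its centring and direction are unknown. The labels name no statistical test.

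For each array, the log2 signal had its 75th percentile over 43020 non-control spots subtracted. Spots marked as outliers (164 to 322 an array) were left out, none was saturated, and spots of a probe were averaged. Probe accessions were named through RefSeq (GRCm38.p6), which matched 27234 of 28684. Kept probes were well above background on 3 or more arrays of any group, and a gene was its brightest probe. The test was limma 3.58.1 in R 4.3.3 (moderated linear model, two-sided, Benjamini-Hochberg over all genes), checked on simulated data. With 3 arrays a group the smallest exact permutation p is 0.1, and the number of arrays limits precision. Scans come from the scan identifiers in the headers. The normexp alternative used median spot signals with an offset of 50, as no mean signal was among the columns. A marker list's summed signal adds, over its genes on the array, the signal as a multiple of the array's 75th percentile.

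Genes given with values for every array were, by rule, the 3 members with the smallest p in each role and, for each further list, up to 2 genes by smallest p; members whose probes disagree in sign are named. Cdk2, Cdt1, Tyms and Top2a were added after their values were seen. The members and lists were chosen with earlier results of these data known. Some markers of the cell type lists are not reported here by name.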

Additional observations from a re-analysis of the deposited data

How the results depend on the processing

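No paired analysis was possible because the titles give the groups no shared replicate number. In the main setting 31 genes were called higher and 38 lower, 0 of them members. Higher and lower genes numbered 16 and 23 with quantile normalization, 405 and 583 with scan as a block, 0 and 0 without the filter on dim probes (16 members at an unadjusted p under 0.05 by limma), 0 and 2 with controls 2 and 3 averaged, and 4 and 5 with background values raised to the floor, a setting added after seeing the data. Leaving out 1 array gave 0 to 18 higher and 0 to 35 lower genes: only without control 2 (0 and 2) and without DECB 6 (18 and 35) was any gene called. Members called numbered 7 with scan as a block, 1 (Cdk1) without scan 1, and 0 in every other setting. Without scan 1 the fit called 32 genes higher and 46 lower in all, with controls 2 and 3 as its only controls. At an unadjusted p under 0.05 (limma), 4 (strict filter, 16 members tested) to 21 (scan as a block) members were higher and 0 lower in the settings with a test. With normexp, on the same members as the main setting, 6 were higher at that threshold, against 15 in the main setting. Prc1, Aurka, Kif20a and E2f1 differed by 0.95, 1, 0.48 and 0.54 with normexp. The mitosis median, 1.12, was 0.44 with normexp, 0.82 (4 genes) with the strict filter, 1.84 within scan 1 and 0.81 with the floor; it ran from 0.93 to 1.29 with 1 array left out. The G1/S median, 1.17, was 0.51 with normexp, 0.67 without the filter, 0.67 with the strict filter, 1.77 within scan 1 and 0.79 with the floor, and ran from 0.94 to 1.29 with 1 array left out. The replication median, 0.55, ran from 0.39 to 0.79 over the settings tried. Some members changed sign: Racgap1 (0.00 with normexp, -0.02 within scan 2), Kif23 (-0.09 within scan 1), Cenpe (-0.56 within scan 2, -0.06 with the floor), Ccnb2 (-0.32 within scan 2), and Tyms (0.02 without scan 1). With 1 array left out, Tyms ran from -0.34 to 0.24, Cdk2 from -0.09 to 0.52, Pcna from -0.04 to 0.44 and Mcm7 from -0.06 to 0.69, all changing sign without DECB 6. Members at least 2-fold higher within both scans numbered 12, and 7 with the floor. The causes were not tested. Signal over background limits the dim members: 11 of 44 could not be tested, and on scan 1 the 75th percentile was only 4.04 (DECB 6) and 3.75 (control 1) times the local background.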
